A study of Rattus norvegicus with 9 samples.

Results

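The 10 genes described here are Cish, 5 genes of the suppressor of cytokine signalling family (Socs1 to Socs5), the transcription factor genes Stat5a and Stat5b, and the kinase genes Pim1 and Jak2. They were taken by name from the 18006 genes with a value in these RNA-seq data, and every one of the 10 had a value in each of the 9 samples. Cish was chosen by its measured low level in PF samples, so its values in PF are given as a description and without a test, while the other 9 genes were chosen as its family and pathway. The cells were RBL-2H3, a rat basophilic leukemia line that carries the high-affinity IgE receptor and is used as a model of mast cells (MCs). The groups were 3 control samples (Ctrl), 3 samples stimulated with antigen (DNP) and 3 samples pretreated with PF before antigen (PF).

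DNP samples had been sensitized for 12 h with anti-DNP IgE at 50 ng/mL and then given DNP-HSA, a multivalent antigen, at 100 ng/mL for 4 h. PF samples had the same sensitization and antigen after 1 h of PF. What PF is was not given in the sources used here. For the PF samples, the labels give 4 h of stimulation in one field and 4, 5 and 6 h in another for replicates 1, 2 and 3, so that a time effect and the spread between PF samples cannot be told apart. Ctrl samples are called untreated in one field, while another field gives the sensitization for all samples. Whether Ctrl cells received IgE is not settled. A difference in DNP vs Ctrl may thus reflect IgE, antigen or both. Phrases below such as after antigen or with antigen mean only that comparison. Nothing says that replicates were separate cultures, and p-values therefore measure the spread between these samples, which may be technical. The labels name peripheral blood as the tissue. The cells expressed MC genes, with the summed level of 9 MC and basophil markers between 5247 and 5614 FPKM in all samples. Tpsab1, also on that list, had no value. Srgn alone was at 2688 to 3004 FPKM, so the sum can hide changes of single markers. From DNP to PF the mean of Gata2 went from 369.7 to 294.3 FPKM and that of Fcer1g from 639.0 to 807.8 FPKM. Of 11 markers of other cell types with a value, summing to 54.0 to 72.1 FPKM, only Pecam1 (43.65 to 61.78 FPKM) and Cd3e (6.74 to 9.52 FPKM) passed the filter on low values. The marker sum was lower in PF (54.0 to 59.6 FPKM) than in DNP samples (64.8 to 69.8 FPKM). Most of that sum was Pecam1, with a mean of 57.4 FPKM in DNP and 45.6 FPKM in PF samples. The mean of Cd3e was 8.46 FPKM in DNP and 8.97 FPKM in PF samples, so the sum reflects 1 gene. Its part in the results was not tested.

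Cytokine receptors without kinase activity of their own signal through Janus kinases such as JAK2, which phosphorylate STAT proteins. Phosphorylated STAT5 dimers enter the nucleus and bind DNA at a palindrome that begins with TTC and ends with GAA, and Cish, Socs1, Socs2, Socs3 and Pim1 are textbook genes turned on by STAT signalling. The SOCS proteins in turn damp the receptor or the kinase, which closes a negative feedback loop, and in MCs this axis carries the survival and growth signals of IL-3 and Kit ligand. Protein and phosphorylation were not measured here, so that STAT5 activity itself was not observed. In such bulk samples, less RNA per cell and fewer cells expressing a gene cannot be told apart.

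Levels are given in FPKM, fragments normalized by gene length and by sequencing depth, a unit in which genes can be compared. Differences between groups are log2 fold changes of FPKM + 1, a scale on which changes of weakly expressed genes come out too small. They were tested with limma across all genes that reached 1 FPKM in 3 or more of the 6 samples compared, and a gene was called when its Benjamini-Hochberg adjusted p was 0.05 or lower. All 10 genes passed this filter in each comparison. DNP vs Ctrl and PF vs DNP share the DNP samples, and both PF comparisons share the PF samples, so the comparisons are not independent of one another.

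Cish (gene ID 83681) encodes CIS, the founding SOCS family protein, which binds phosphorylated cytokine receptors and competes with STAT5 for them. The 250 bases before its RefSeq start are shown because they hold the DNA palindrome of STAT proteins more often than nearly all other rat promoters. They lie at chr8:116850719-116850968 on the plus strand of the GRCr8 assembly, which is not the rn6 build of the expression values. Capitals mark matches to TTCNNNGAA.

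Cish promoter: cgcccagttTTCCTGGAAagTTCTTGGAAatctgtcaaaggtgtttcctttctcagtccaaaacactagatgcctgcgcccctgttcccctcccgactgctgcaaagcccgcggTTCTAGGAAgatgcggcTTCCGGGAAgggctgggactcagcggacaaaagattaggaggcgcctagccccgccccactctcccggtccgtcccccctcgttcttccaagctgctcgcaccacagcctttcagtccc

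The 4 matches run from base -241 to -233 (TTCCTGGAA), from -230 to -222 (TTCTTGGAA), from -136 to -128 (TTCTAGGAA) and from -119 to -111 (TTCCGGGAA), counted from the start. They form 2 pairs and do not overlap. Of 27457 rat promoter windows of the same 250 bases, 7.52% held at least 1 match on either strand, 0.375% held at least 2, and only 2 windows (0.00728%), Cish among them, held at least 4. Of the 8 member genes with a window in the RefSeq table, Socs1 was the only other with a match, a single TTCAGGGAA from -196 to -188. No match was found in the windows of Socs3, Socs4, Stat5a, Stat5b, Pim1 and Jak2, and Socs2 and Socs5 were not in the table. The STAT6-type palindrome, with 1 more base between TTC and GAA, was in 6.29% of all windows and in none of the 8. The AP-1 site TGANTCA, which FOS and JUN dimers bind, was in 6.36% of all windows and in none of the 8. A match describes the letters of the window and does not show that a factor binds there.

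**Figure D1:**
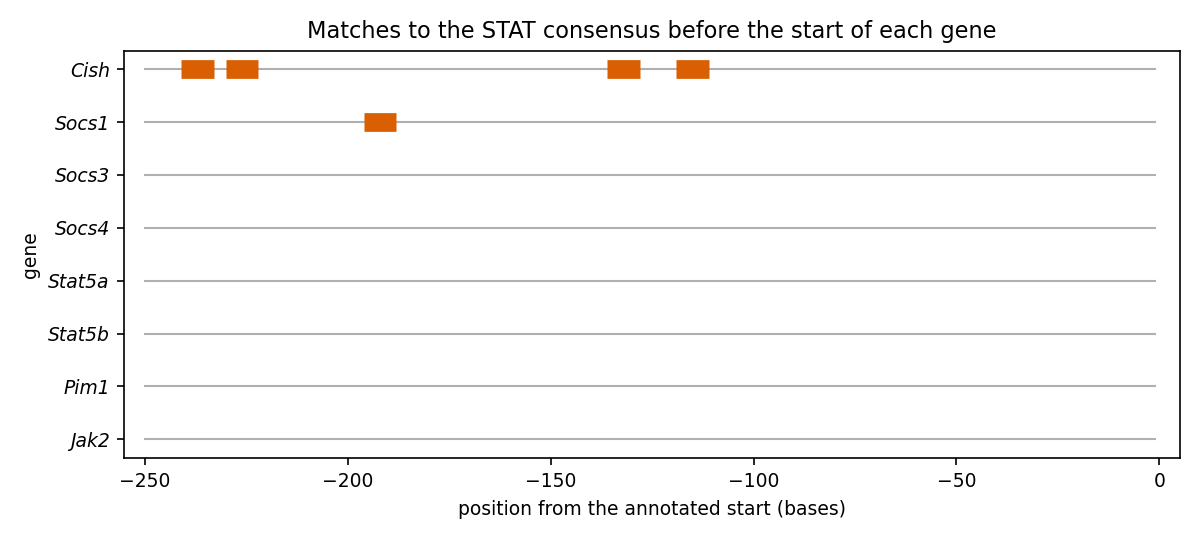
Positions of TTCNNNGAA (orange) in the 250 bases before the RefSeq start of the 8 member genes in the promoter table; the x axis is the distance from the start in bases, and each grey line is 1 gene. Cish carries 4 matches in 2 pairs, Socs1 carries 1, and the other 6 genes carry none.

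Cish stood at 17.89, 20.65 and 16.50 FPKM in Ctrl, at 23.88, 20.48 and 21.74 FPKM in DNP, and at 4.16, 4.11 and 4.21 FPKM in PF samples. All 3 PF samples were below the lowest Ctrl and DNP samples, and they were closer to each other (SD 0.05 FPKM) than those of either other group (SD 2.11 and 1.72 FPKM). The mean in DNP was 5.30 times that in PF, and the mean in Ctrl was 4.41 times that in PF. The log2 fold change was -2.16 in PF vs DNP (standard error, SE, 0.0648), the 7th lowest of 10329 genes, and -1.90 in PF vs Ctrl (SE 0.0808), the 11th lowest of 10361. With a pseudocount of 0.1 these became -2.37 and -2.11.

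In DNP vs Ctrl Cish stayed near the threshold. Its mean was 18.3 ± 2.11 FPKM in Ctrl samples and 22.0 ± 1.72 FPKM in DNP samples (SD, n = 3 each), the 2 groups overlapped in 1 place, with DNP replicate 2 just below Ctrl replicate 2, and the log2 fold change of 0.25 (95% confidence interval 0.06 to 0.45) missed the call (limma adjusted p = 0.0536). It was called without Ctrl replicate 2 (0.34, limma adjusted p = 0.0183), with all 3 groups in the fit (adjusted p = 0.0337) and with each sample scaled to the mean sum (adjusted p = 0.036).

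**Figure D2:**
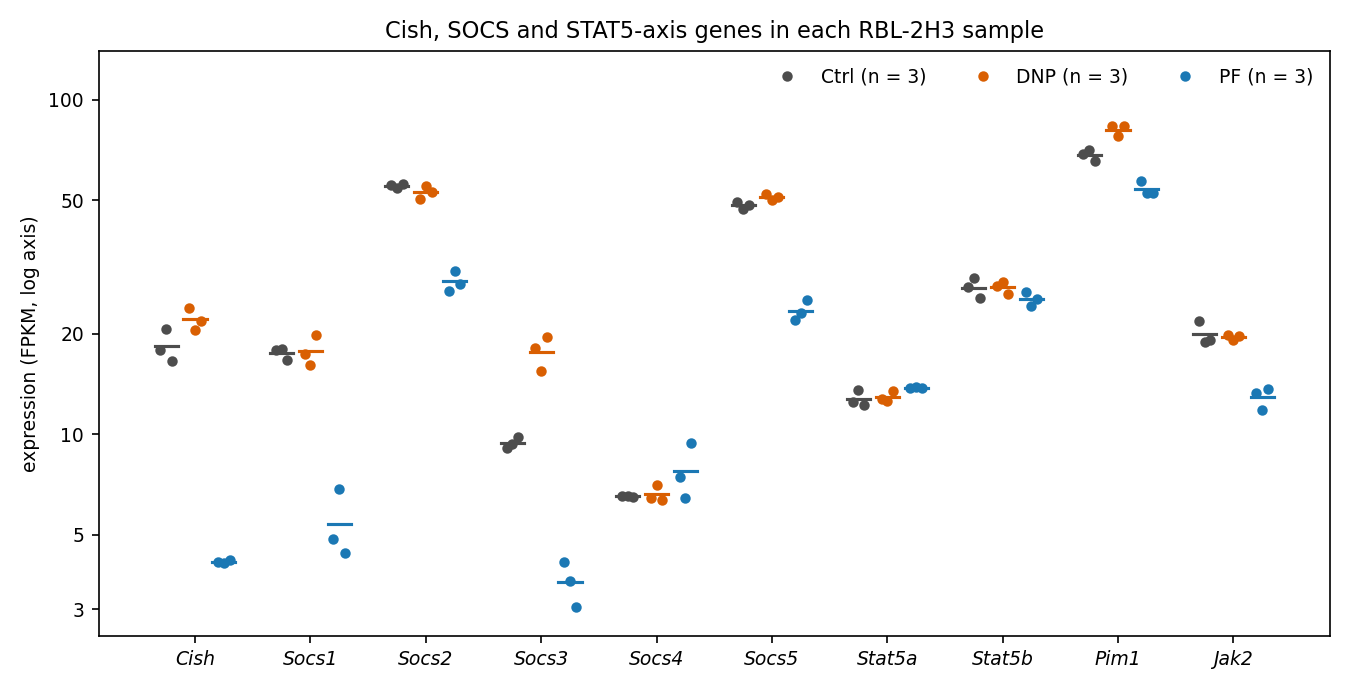
Expression of the 10 genes in each sample (y axis, FPKM on a log axis), with points for the 3 samples of Ctrl (grey), DNP (orange) and PF (blue) and a bar for each group mean. PF samples lie below all Ctrl and DNP samples for Cish, Socs1, Socs2, Socs3, Socs5, Pim1 and Jak2, and above them for Stat5a, whose PF samples span 13.73 to 13.87 FPKM. Cish was chosen for its low level in PF, and the share of all genes separated in this way was not counted. Over all genes 48.8% were called in PF vs DNP and 57.7% in PF vs Ctrl, so the separation does not set these genes apart.

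Across the 10 genes, 2 were called higher and none lower in DNP vs Ctrl. Of all 10392 genes tested there, 29.2% were called (14.7% higher, 14.4% lower). The members called higher were Socs3 and Pim1. At an unadjusted p under 0.05 in limma 3 were higher, Cish being the third, and again 0 were lower. That threshold passes more than the 29.2% of all genes called, a share not counted here, so the count does not set the members apart. The median log2 fold change of the 10 was 0.02, against -0.01 for all genes tested. In PF vs DNP, 6 of the 9 genes other than Cish were lower and none was higher, beside 48.8% of all genes called (18.1% higher, 30.7% lower). The same 6 genes, Socs1, Socs2, Socs3, Socs5, Pim1 and Jak2, were lower in PF vs Ctrl, where 57.7% of all genes were called (23.1% higher, 34.6% lower). The median log2 fold change of the 9 genes other than Cish was -0.58 in PF vs DNP and -0.59 in PF vs Ctrl, against -0.04 and -0.05 for all genes tested. At an unadjusted p under 0.05 in limma the counts in both PF comparisons were also 6 lower and 0 higher. The share of all genes at that threshold was again not counted. It is at least the 48.8% and 57.7% called, so this repeat does not set the members apart. Stat5a, Stat5b and Socs4 were not called in any of the 3 comparisons.

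**Figure D3:**
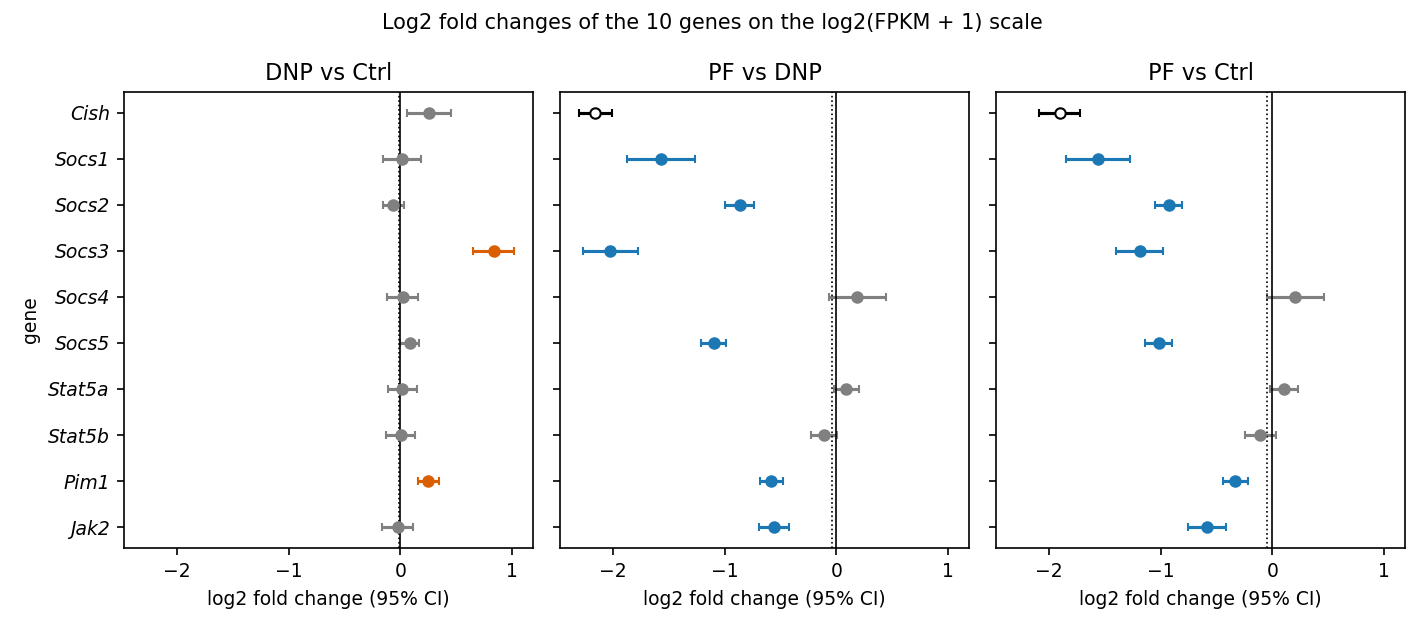
Log2 fold changes of the 10 genes (x axis, log2(FPKM + 1) scale), each with its 95% confidence interval, in the 3 comparisons. Genes called in limma are orange where higher and blue where lower, grey is not called, open black is Cish in PF, which was not tested, and the dotted line is the median of all genes. In both PF panels 6 genes are blue, at -0.56 or below in PF vs DNP and at -0.33 or below in PF vs Ctrl.

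Socs1 (gene ID 252971) and Socs3 (89829) encode the SOCS proteins that inhibit Janus kinases directly through a short kinase inhibitory region. Socs3 had the larger fold change of the 2 members called higher in DNP vs Ctrl. It stood at 9.12, 9.37 and 9.81 FPKM in Ctrl, at 18.06, 15.46 and 19.49 FPKM in DNP, and at 4.15, 3.63 and 3.04 FPKM in PF samples. The 3 groups did not overlap, with DNP highest and PF lowest, below the unstimulated level. Its log2 fold change was 0.83 in DNP vs Ctrl (SE 0.0804, limma adjusted p = 0.000312), -2.02 in PF vs DNP (SE 0.106, adjusted p = 1.63e-06) and -1.19 in PF vs Ctrl (SE 0.0927, adjusted p = 1.69e-05). In linear terms the DNP mean was 1.87 times the Ctrl mean and 4.90 times the PF mean.

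Socs1 had no such antigen response. It was at 17.85, 18.03 and 16.70 FPKM in Ctrl and at 17.34, 16.12 and 19.86 FPKM in DNP samples, ranges that overlap (log2 fold change 0.01, 95% interval -0.15 to 0.18, limma adjusted p = 0.895). In PF samples it was at 4.86, 6.87 and 4.41 FPKM, all below the lowest of the other samples. The log2 fold change was -1.57 in PF vs DNP (SE 0.134, limma adjusted p = 2.45e-05) and -1.56 in PF vs Ctrl (SE 0.126, adjusted p = 1.99e-05). Its SE was the largest of the 10 genes in both PF comparisons, with replicate 2 above the other PF samples. Socs1 and Socs3 thus began from different levels in Ctrl, lay side by side in DNP (means 17.8 and 17.7 FPKM, ranges overlapping), and were again separate in PF (means 5.38 and 3.61 FPKM).

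Socs2 (gene ID 84607) encodes a regulator of growth hormone receptor signalling that acts as a ubiquitin ligase adaptor. It was at 55.61, 54.30 and 56.03 FPKM in Ctrl, at 50.60, 55.15 and 53.09 FPKM in DNP, and at 26.85, 30.85 and 28.18 FPKM in PF samples. Ctrl and DNP overlapped (log2 fold change -0.06, limma adjusted p = 0.276), and PF was apart from both. The log2 fold change was -0.87 in PF vs DNP (SE 0.0558, limma adjusted p = 4.70e-06) and -0.93 in PF vs Ctrl (SE 0.0538, adjusted p = 3.85e-06).

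Socs5 (gene ID 500616) and Socs4 (305828) are close relatives within the family, with long N-terminal regions and described roles at the EGF and IL-4 receptors. Socs5 was at 49.61, 47.05 and 48.32 FPKM in Ctrl, at 52.08, 50.19 and 51.33 FPKM in DNP, and at 22.01, 23.10 and 25.11 FPKM in PF samples. All DNP samples were above all Ctrl samples by a small margin that was not called (log2 fold change 0.08, limma adjusted p = 0.124; exact permutation p = 0.1, the smallest that 3 against 3 allows). In PF it was lower by -1.10 on the log2 scale vs DNP (SE 0.0504, limma adjusted p = 8.84e-07) and by -1.02 vs Ctrl (SE 0.0542, adjusted p = 2.53e-06).

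Socs4 went otherwise. It was at 6.54, 6.53 and 6.49 FPKM in Ctrl, at 6.46, 7.07 and 6.36 FPKM in DNP, and at 7.43, 6.45 and 9.39 FPKM in PF samples. PF replicates 1 and 3 were above all other samples and PF replicate 2 was below all 3 Ctrl samples. The log2 fold change was 0.19 in PF vs DNP (95% interval -0.07 to 0.44, limma adjusted p = 0.202) and 0.21 in PF vs Ctrl (-0.05 to 0.46, adjusted p = 0.143). Without PF replicate 2 it was called higher in both (limma adjusted p = 0.0432 and 0.0268). The intervals of Socs4 and Socs5 in PF vs DNP do not touch.

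Stat5a (gene ID 24918) and Stat5b (25126) encode the pair of STAT5 proteins. Their coding sequences are nearly identical, fragments may align to both, and the split between the genes depends on how the quantification assigned them. Stat5a was at 12.47, 13.54 and 12.22 FPKM in Ctrl, at 12.73, 12.53 and 13.43 FPKM in DNP, and at 13.75, 13.87 and 13.73 FPKM in PF samples. Stat5b was at 27.49, 29.27 and 25.56 FPKM in Ctrl, at 27.71, 28.49 and 26.26 FPKM in DNP, and at 26.59, 24.13 and 25.37 FPKM in PF samples.

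Neither gene was called. Stat5b had about the same mean in Ctrl and DNP (27.4 and 27.5 FPKM), with a log2 fold change of 0.00 (95% interval -0.13 to 0.13, limma adjusted p = 0.968), and Stat5a had one of 0.02 (-0.11 to 0.15, adjusted p = 0.850). In PF vs DNP, Stat5a was at 0.09 (-0.02 to 0.20, limma adjusted p = 0.159) and Stat5b at -0.11 (-0.23 to 0.00, adjusted p = 0.0945). The Stat5a samples of PF lay above those of DNP and Ctrl without overlap, and those of Stat5b overlapped with both. These small differences followed the scaling. By median ratios Stat5a was called higher (limma adjusted p = 0.0464 vs DNP and 0.0395 vs Ctrl), and with samples scaled to the mean sum Stat5b was called lower (adjusted p = 0.0138 and 0.0319), while Stat5a vs DNP came to -0.0024.

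Jak2 (gene ID 24514), the kinase of the IL-3 and erythropoietin receptors among others, was at 21.80, 18.80 and 19.17 FPKM in Ctrl, at 19.74, 19.18 and 19.70 FPKM in DNP, and at 13.32, 11.83 and 13.68 FPKM in PF samples. It was not called in DNP vs Ctrl (log2 fold change -0.02, limma adjusted p = 0.792). PF samples were all lower, by -0.56 vs DNP (SE 0.0590, limma adjusted p = 8.53e-05) and by -0.59 vs Ctrl (SE 0.0746, adjusted p = 0.000234). Among the signal-carrying members (Jak2, Stat5a, Stat5b), Jak2 was therefore the one that was called.

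Pim1 (gene ID 24649) encodes a serine/threonine kinase that promotes survival and growth and is switched on at the level of transcription. It was the most abundant member in every group. It was at 68.59, 70.56 and 65.70 FPKM in Ctrl, at 83.20, 77.85 and 83.19 FPKM in DNP, and at 57.26, 52.48 and 52.46 FPKM in PF samples. As for Socs3, the 3 groups did not overlap, and DNP was highest and PF lowest. The steps were smaller, 0.25 in DNP vs Ctrl (SE 0.0418, limma adjusted p = 0.00353), -0.58 in PF vs DNP (SE 0.0460, adjusted p = 1.56e-05) and -0.33 in PF vs Ctrl (SE 0.0485, adjusted p = 0.000505).

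The order of the levels changed between groups. In Ctrl samples it ran Pim1, Socs2, Socs5, Stat5b, Jak2, Cish, Socs1, Stat5a, Socs3 and Socs4, and the ranges of neighbours overlapped only for Jak2 with Cish and for Cish with Socs1. In DNP samples Socs3 moved above Stat5a, and Cish above Jak2 with no overlap. Against the order in DNP, in PF samples Stat5b passed Socs5, with overlapping ranges, and Stat5a passed Jak2, Socs1, Cish and Socs3, while the bottom of the order became Socs4, Socs1, Cish and Socs3. The ranges of Cish and Socs3 overlapped there, and Socs4, the lowest member in Ctrl and DNP, was above both.

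The wider pathway was followed in 6 lists of other genes, whose counts stand beside the 29.2% of all genes called in DNP vs Ctrl and the 48.8% called in PF vs DNP. Of 21 cytokine ligands of such receptors 5 passed the filter, and 4 of these were higher in DNP vs Ctrl with none lower, while 5 of 5 were lower in PF vs DNP (median log2 fold change 1.46 and -1.17, against -0.01 and -0.04 for all genes). The MC growth factor Il3 was at 4.07, 3.96 and 4.50 FPKM in Ctrl, at 17.74, 21.06 and 21.46 FPKM in DNP, and at 6.63, 7.94 and 7.42 FPKM in PF samples. PF samples of Il3 thus lay between the other groups, apart from both (log2 fold change 2.02 in DNP vs Ctrl, limma adjusted p = 2.47e-06; -1.34 in PF vs DNP, adjusted p = 4.47e-06; 0.68 in PF vs Ctrl, adjusted p = 0.000152). Il4, which signals through STAT6, had log2 fold changes of 2.00 (limma adjusted p = 9.82e-07) and -1.59 (adjusted p = 1.68e-05). Lif, whose mean rose from 111.5 FPKM in Ctrl to 307.3 FPKM in DNP, was still at 234.0 FPKM in PF. Osm, a cytokine that is also a known STAT5 target, had log2 fold changes of -1.17 in PF vs DNP (limma adjusted p = 5.61e-07) and -1.06 in PF vs Ctrl (adjusted p = 2.64e-06), and it was not called in DNP vs Ctrl. The receptor chains for Lif and Osm, Lifr, Osmr and Il6st, were at 0.12 FPKM or below in every sample.

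Of 30 receptor chains of the pathway, 17 passed the filter. In DNP vs Ctrl 2 were higher and 6 lower, and in PF vs DNP 1 was higher and 12 were lower (median log2 fold change -0.05 and -0.39). Csf2rb, the shared beta chain of the IL-3, IL-5 and GM-CSF receptors, was at 343.12, 341.11 and 339.63 FPKM in Ctrl, at 254.77, 262.50 and 248.63 FPKM in DNP, and at 145.83, 135.03 and 146.83 FPKM in PF samples. It was therefore lower after antigen (log2 fold change -0.42, limma adjusted p = 0.000107) and lower again in PF vs DNP (-0.84, adjusted p = 1.06e-06), where Il3ra, the IL-3 receptor alpha chain, was the 1 chain called higher (0.14, adjusted p = 0.0284; 0.04, adjusted p = 0.467 with samples scaled to the mean sum). That call was also lost without DNP replicate 1 or 3 or PF replicate 2 (limma adjusted p = 0.0819 to 0.0852). Il10ra, the IL-10 receptor chain, was the lowest chain in PF vs DNP (log2 fold change -1.72, limma adjusted p = 1.45e-05), followed by Ifngr2 of the interferon gamma receptor (-1.01, adjusted p = 1.05e-06). Epor, the erythropoietin receptor, was lowest in DNP vs Ctrl (-0.70, limma adjusted p = 0.000791). The counts in DNP vs Ctrl rested on calls near the threshold, and 5 chains in place of 8 were called without Ctrl replicate 2 or 3 or without any 1 of the DNP samples.

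Of the 12 STAT, JAK, PIM and SOCS genes outside the 10, 1 was higher and 5 were lower in DNP vs Ctrl, and 5 were lower and none higher in PF vs DNP (median log2 fold change -0.07 and -0.11, against -0.01 and -0.04 for all genes). The 5 of 12 called in PF vs DNP are a smaller share than the 48.8% of all genes called, so that the count sets these genes in no way apart. The 1 higher call, Jak3 in DNP vs Ctrl, was lost without Ctrl replicate 1 or any 1 DNP sample (limma adjusted p = 0.0566 to 0.0677). Pim3, a close relative of Pim1, was at 27.92, 29.66 and 29.26 FPKM in Ctrl, at 20.23, 18.57 and 18.10 FPKM in DNP, and at 11.32, 11.01 and 11.44 FPKM in PF samples. It went down at each step (log2 fold change -0.59 in DNP vs Ctrl, limma adjusted p = 0.000217; -0.70 in PF vs DNP, adjusted p = 1.38e-05), whereas Pim1 went up with antigen. Stat6, the STAT of the IL-4 receptor, was also lower at both steps (-0.39, limma adjusted p = 0.00111; -0.41, adjusted p = 0.000175).

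Of 15 other genes known as STAT5 targets, 13 passed the filter. In DNP vs Ctrl 3 were higher and 2 lower, and in PF vs DNP 1 was higher and 9 were lower (median log2 fold change 0.05 and -0.52). Nfil3, a transcription factor induced by IL-3, was at 32.28, 33.89 and 34.51 FPKM in Ctrl, at 43.50, 44.65 and 46.03 FPKM in DNP, and at 23.63, 22.89 and 24.51 FPKM in PF samples. Like Socs3 and Pim1 it was highest in DNP and lowest in PF (log2 fold change 0.40 in DNP vs Ctrl, limma adjusted p = 0.000401; -0.89 in PF vs DNP, adjusted p = 1.02e-06). The survival gene Bcl2l1 and the cell cycle inhibitor Cdkn1a were instead lower in DNP vs Ctrl (-0.47 and -0.32, limma adjusted p = 0.00103 and 0.000857). The survival gene Mcl1 was lower in PF vs DNP (-0.88, limma adjusted p = 1.69e-06), and Ccnd1, the cyclin D1 gene, was the 1 target that was higher (0.50, adjusted p = 0.00419; 0.41, adjusted p = 0.0914 with only the PF sample labelled 4 h in both fields). In DNP vs Ctrl the higher call of Myc was lost without Ctrl replicate 1 or 2 or DNP replicate 2 or 3 (limma adjusted p = 0.0561 to 0.0901), that of Mcl1 was lost without Ctrl replicate 2 or 3 or any 1 DNP sample (adjusted p = 0.0578 to 0.108), and 3 targets in place of 5 were called without Ctrl replicate 2, DNP replicate 2 or DNP replicate 3.

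Of 12 other inhibitors of the pathway, 4 were higher and 3 lower in DNP vs Ctrl, where 29.2% of all genes were called, and 2 were higher and 5 lower in PF vs DNP, where 48.8% were (median log2 fold change 0.01 and -0.13). The 2 higher calls in PF vs DNP, Pias2 and Ptpn6, were both lost with samples scaled to the mean sum (limma adjusted p = 0.262 and 0.939), without DNP replicate 2 (adjusted p = 0.0544 and 0.0931) and without PF replicate 1 (adjusted p = 0.0575 and 0.102). Leaving out any 1 of DNP replicates 1 and 3 and PF replicates 2 and 3 left 1 of the 2. With the replicate block Ptpn6 was not called (limma adjusted p = 0.0623). Sh2b3, which encodes the adaptor LNK and restrains JAK2 at cytokine receptors, was lowest in PF vs DNP (-1.09, limma adjusted p = 6.88e-07) after a small rise with antigen (0.23, adjusted p = 0.00300). The phosphatase gene Ptpn1 followed the same course (0.30, limma adjusted p = 0.00101; -0.58, adjusted p = 7.71e-06). Pias1, which encodes a nuclear STAT inhibitor, was lower at both steps (-0.36, limma adjusted p = 0.000752; -0.26, adjusted p = 0.00651).

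The SOCS box of CIS and the SOCS proteins recruits a ubiquitin ligase made of elongins, a cullin and a RING protein. Of 6 partner genes 0 were called in DNP vs Ctrl by limma, with 1 higher and 1 lower at an unadjusted p under 0.05. The share of all genes at that unadjusted threshold was not counted. Without Ctrl replicate 2 there was 1 higher, and without Ctrl replicate 3 there was 1 lower. In PF vs DNP 4 were higher and 1 lower (median log2 fold change 0.14), with Rbx1 higher only near the threshold (0.09, limma adjusted p = 0.0472). The elongin genes Elob and Eloc were higher (0.41 and 0.20, limma adjusted p = 0.000249 and 0.00125), as was Rnf7 (0.47, adjusted p = 0.000500), and the scaffold gene Cul5 was lower (-0.29, adjusted p = 0.00321). Among the tested SOCS members, Socs1, Socs2, Socs3 and Socs5 were called lower in PF vs DNP and Socs4 was not called. Both elongin genes were higher. The SOCS genes outside the members, Socs6 and Socs7, were not called in PF vs DNP either (log2 fold change -0.055 and -0.020, limma adjusted p = 0.607 and 0.822). Over all genes 30.7% were called lower and 18.1% higher there. Cish is left out of this count because it was chosen for its low level in PF.

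**Figure D4:**
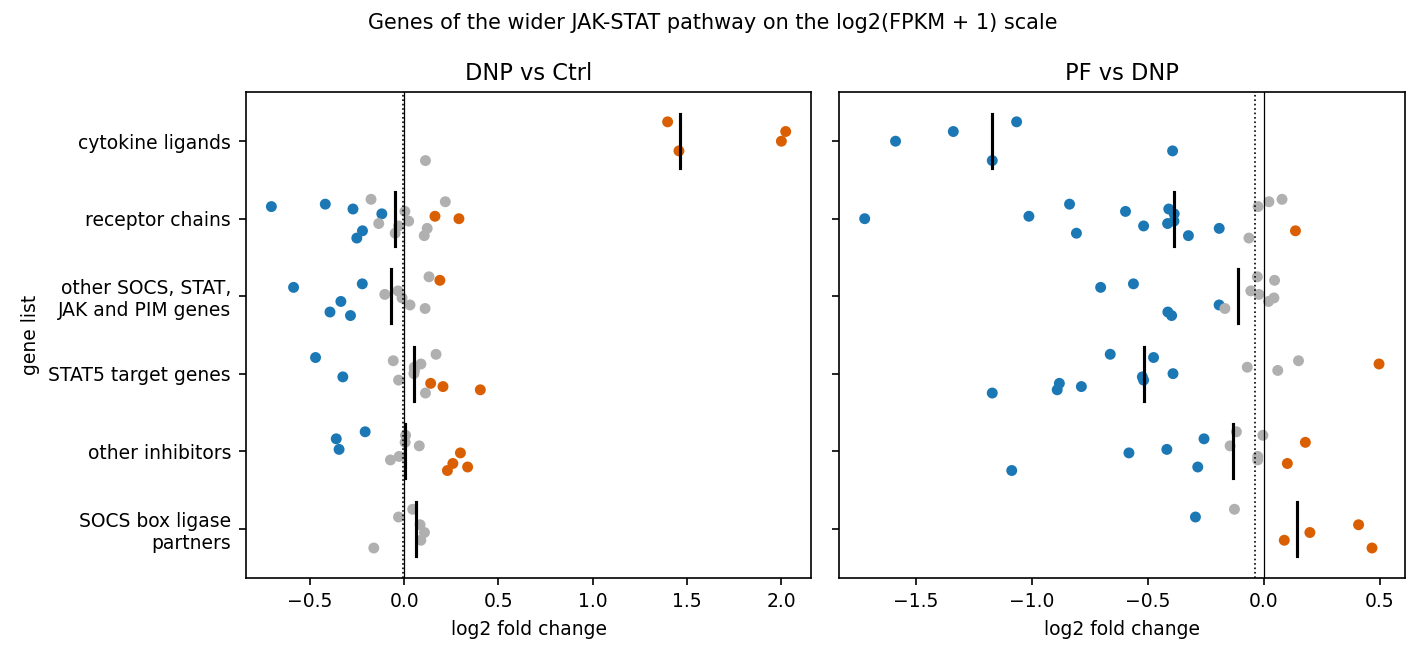
Log2 fold change on the log2(FPKM + 1) scale (x axis) of the tested genes of 6 pathway lists, in DNP vs Ctrl and in PF vs DNP; each point is 1 gene, called higher (orange), called lower (blue) or not called (grey) in limma, the black bar is the list median and the dotted line the median of all genes. The cytokine ligands lie to the right in DNP vs Ctrl (median 1.46) and to the left in PF vs DNP (median -1.17), and the SOCS box ligase partners lie mostly to the right in PF vs DNP (median 0.14).

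Over all genes, called genes split into 37.1% higher and the rest lower in PF vs DNP. With samples scaled by median ratios the share higher was 48.0%, and with samples scaled to the mean sum it was 16.8%. The shares in PF vs Ctrl were 40.0%, 48.0% and 26.7%. The mean sum moved the median of all genes to -0.13 in PF vs DNP and -0.12 in PF vs Ctrl. The 6 genes called lower in PF kept their direction and their call under both scalings.

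The genes with the course most like that of Cish were searched for over all 9 samples, among 10503 genes, by the root mean square difference of log2(FPKM + 1) after each gene's own Ctrl mean was taken off. The closest was LOC100360380 (difference 0.125), an uncharacterized locus at 26.27 to 29.24 FPKM in Ctrl, 29.36 to 31.40 FPKM in DNP and 6.42 to 6.98 FPKM in PF samples. Next came Tspan15, a tetraspanin gene (0.219), Gpr171, a G protein-coupled receptor gene (0.220), Myct1 (0.231) and Card6 (0.256). Tspan15 was at 1.09, 0.66 and 0.88 FPKM in PF samples, near the 1 FPKM of the filter. Gpr171 ran from 30.26 to 34.29 FPKM in Ctrl, from 35.35 to 36.51 FPKM in DNP and from 9.35 to 10.74 FPKM in PF samples. Under other pseudocounts, scalings and with 1 sample left out, 3 to 5 of these 5 genes were again among the closest, with 3 at a pseudocount of 0.1, without Ctrl replicate 3 and without PF replicate 2. At the pseudocount of 0.1, Tspan15 and Gpr171 were no longer among the 5. Tspan15, Gpr171 and Myct1 had no TTCNNNGAA in their windows of 250 bases, and the other two were not in the promoter table.

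Within the 10 genes, Socs1 was nearest to Cish (difference 0.295, the 13th closest of all), before Socs5 (0.530, 143rd), Socs3 (0.549, 169th) and Socs2 (0.604, 268th). Jak2 (0.785) and Pim1 (0.909) were farther, and Stat5b (1.05), Stat5a (1.17) and Socs4 (1.23) were farthest. These ranks describe likeness over 9 samples in 3 groups and are dominated by the PF samples. Without PF replicate 2, Socs1 was among the 5 genes closest to Cish.

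**Figure D5:**
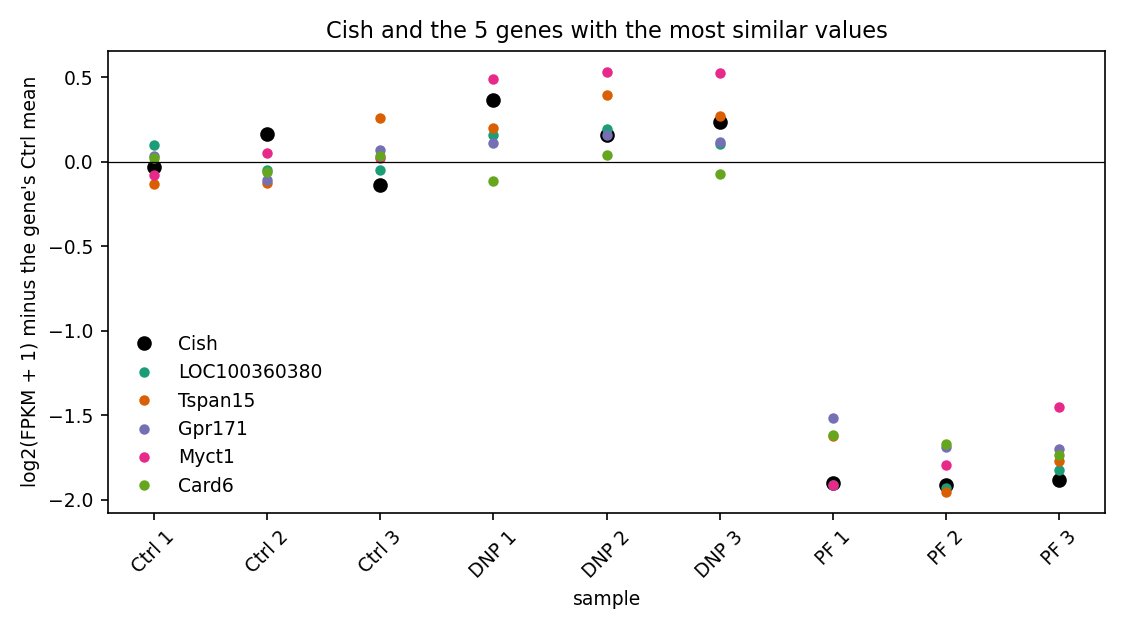
Values of Cish and of the 5 genes most like it in each of the 9 samples, as log2(FPKM + 1) less the gene's own Ctrl mean (y axis); each colour is 1 gene. In the PF samples all 6 genes lie at -1.45 or below, and in the Ctrl and DNP samples they lie between -0.14 and 0.53.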

How the data were processed

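RNA-seq of 9 RBL-2H3 samples was analysed, 3 per group by the sample labels. Per the study's methods, the authors sequenced on a BGISEQ-500, cleaned reads with SOAPnuke and used HISAT2 (version 2.0.4) for mapping, with Bowtie2 (2.2.5) and RSEM (1.2.12) for gene quantification. The submitters' processing notes name the build rn6, and the labels name an Illumina library protocol. The authors deposited 1 value per gene and sample, normalized for gene length and depth, which was read as FPKM because the heading names no unit and the sample sums differ (573023 to 630069). Read counts are unknown, so no counting error is given, precision rests on 3 samples a group, and no count model was run. Of 38490 gene rows, 18006 had values. Rows stood in 5 orders and were joined by gene ID. No samples were duplicates of one another.

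limma 3.58.1 in R 4.3.3 (lmFit, eBayes with trend) was run on log2(FPKM + 1) for each comparison on its own 6 samples, and was tested on simulated data. The 10 genes were tested singly as well, by exact two-sided permutation, for which 3 samples against 3 allow no p below 0.1. The members and lists were chosen with earlier results of these data known, and the lists hold pathway genes irrespective of how they moved. Named genes are the members, up to 3 of the highest and 3 of the lowest called genes of each list and comparison, and the 5 genes most like Cish, of which the text gives those it uses. Tceb1 and Tceb2 were read as older symbols of Eloc and Elob. Sequences are RefSeq's, from the GRCr8 assembly, and 8 of the 10 genes had one. Replicate numbers are shared by the groups' labels. Alternatives were a pseudocount of 0.1, no filter, fitting all 3 groups together, a block for the replicate number, a threshold of 0.01, scaling by median ratios or to the mean sum, limma without trend, leaving out each sample, and only the PF sample labelled 4 h in both fields. The search for genes like Cish was repeated under settings added after seeing the data.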

Additional observations from a re-analysis of the deposited data

How the results depend on the processing

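The number of members past the threshold moved by at most 1.5 times under every alternative run, in each of the 3 comparisons. All 10 genes were counted in DNP vs Ctrl, and the 9 other than Cish in the PF comparisons. In DNP vs Ctrl the number went from 2 to 3 where Cish was added. In each PF comparison Socs4, Stat5a and Stat5b each gained a call under 1 alternative. No call of the counted genes was lost under any. Correlations of the deviations of same-numbered samples from their group means ran from -0.0822 to 0.189, and all 3 were positive in PF vs Ctrl (0.0908, 0.189 and 0.083). With 3 samples a group they cannot settle whether replicate numbers pair the samples, and the main fits used no block. With the replicate block, 2697 genes were called in DNP vs Ctrl, 4675 in PF vs DNP and 6009 in PF vs Ctrl. Without it there were 3031, 5042 and 5975, and no call of the 10 genes changed. Genes not called in DNP vs Ctrl changed sign when single samples were left out. The log2 fold change of Socs1 ran from -0.0635 to 0.079, that of Socs4 from -0.0213 to 0.0452, that of Stat5a from -0.0108 to 0.0580, that of Stat5b from -0.0447 to 0.0497 and that of Jak2 from -0.0623 to 0.0395. Scaled to the mean sum, Stat5a in PF vs DNP came to -0.00237, the only other sign change. Among the list genes named by rule, values past the threshold were lost 44 times of 322 in DNP vs Ctrl, 22 of 330 in PF vs DNP and 15 of 345 in PF vs Ctrl, in 7, 4 and 3 genes. The cause was not tested. With no filter on low values, 2359, 4753 and 5933 genes were called over all genes in the 3 comparisons, and at the threshold of 0.01 there were 1469, 3445 and 4446, where fewer genes pass by construction. Depth in reads is unknown, and differences of the size seen for Stat5a and Stat5b are within what another scaling changes.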

Other observations

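The pathway lists were also compared between PF and Ctrl samples, that is, between antigen after PF and neither. Of the 5 cytokine ligands tested, 4 stayed above the Ctrl level and 1 was below it. Lif was highest (log2 fold change 1.06, limma adjusted p = 4.03e-06), at 111.5 ± 9.35 FPKM in Ctrl and 234.0 ± 10.5 FPKM in PF samples (SD, n = 3 each), and Osm was the 1 lower, from 119.1 ± 6.35 to 56.8 ± 3.51 FPKM (SD, n = 3 each). Il4 was called higher (0.41, limma adjusted p = 0.0283) but not with only the PF sample labelled 4 h in both fields (0.09, adjusted p = 0.575), and its PF samples labelled 4, 5 and 6 h in the treatment field were at 2.55, 3.71 and 4.22 FPKM. The call was also lost without PF replicate 2 (adjusted p = 0.0828) or 3 (adjusted p = 0.0899), and without Ctrl replicate 2 (adjusted p = 0.0709) or 3 (adjusted p = 0.062).

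Of 17 receptor chains tested in PF vs Ctrl, 13 were lower and none was higher (median log2 fold change -0.55, against -0.05 for all genes). Csf2rb, the shared beta chain of the IL-3 receptor, was lower by -1.26 (limma adjusted p = 4.64e-07) and Il4r, the IL-4 receptor chain, by -0.85 (adjusted p = 1.96e-06). Of the 12 family genes outside the 10, 6 were lower and 1 higher, about the share of all genes called in this comparison (57.7%). The lowest were Pim3 (-1.29, limma adjusted p = 6.41e-07), Stat6 (-0.81, adjusted p = 4.08e-06) and Pim2 (-0.78, adjusted p = 9.79e-06), and the higher gene was Jak3, the kinase of the common gamma chain (0.24, adjusted p = 0.00934). Of the 13 STAT5 targets, 9 were lower and 1, Ccnd1, was higher (0.59, limma adjusted p = 0.00137). The survival gene Bcl2l1 was among the lower ones (-0.94, limma adjusted p = 3.42e-06). The other inhibitors had 2 higher and 5 lower of 12, again about the 57.7% called over all genes. Of the 2 higher, Pias2 was lost with samples scaled to the mean sum (limma adjusted p = 0.182), without Ctrl replicate 2 (adjusted p = 0.0637), without PF replicate 1 (adjusted p = 0.0652) or 3 (adjusted p = 0.0648) and with only the PF sample labelled 4 h in both fields (adjusted p = 0.0542). The SOCS box partners had 4 higher and 1 lower of 6, with Elob highest (0.49, limma adjusted p = 0.000180), and 2 higher and 1 lower with only that PF sample.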
